A study of Homo sapiens with 6 samples.

Results

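The genes described here were the translation initiation factors (eIFs) and elongation factors (eEFs) of human cells. Members were the rows of the deposited gene count table whose symbol started with EIF1 to EIF6, EEF1 or EEF2. The EIF2AK kinases and symbols that end in P and digits, meant as pseudogenes but also the coding EIF4EBP1, EIF4EBP2 and EIF4EBP3, were left out, and at least 10 counts were required in 3 or more of the 6 libraries. The name rule left 70 candidates, of which 6 had too few counts, among them EIF4E1B and several antisense or divergent transcripts. The 64 members were drawn from the 62754 genes of the table, and all 64 also passed the filter on low counts of the test. Of these, 51 were canonical factors or factor subunits, and the rest were modifying enzymes, associated proteins, readthrough transcripts and non-coding partners.

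The series measured mRNA in HK-2 cells, an immortalized line of human proximal tubular epithelial cells, after NAT10 was silenced under cisplatin. NAT10 is an acetyltransferase that places N4-acetylcytidine on RNA and also acetylates proteins, and cisplatin is a platinum drug that injures tubular cells. In the CP+siNC group (n = 3) cells received cisplatin and a negative control siRNA, and in the CP+siNAT10 group (n = 3) cells received cisplatin and an siRNA to NAT10. Both groups therefore carried cisplatin, transfection and an siRNA, and they were the only groups of the series, so no library lacked cisplatin. The labels give no dose or duration, and the methods give 20 μM for 24 h as the condition chosen for the later cell experiments. Total counts were 19321665, 21602988 and 19464027 in CP+siNC and 20793709, 21531774 and 25192736 in CP+siNAT10. Nothing in the labels says that the 3 libraries of a group came from separate cultures, so p-values measure only the spread between these libraries, which may be technical.

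Translation of most mRNAs starts when the small ribosomal subunit, loaded with initiator tRNA by eIF2 and held by eIF3, is recruited to the capped end through the cap-binding protein eIF4E, the scaffold eIF4G and the helicase eIF4A. The subunit then scans to a start codon, where eIF1, eIF1A and eIF5 control recognition and eIF5B joins the large subunit. During elongation eEF1A delivers aminoacyl-tRNA, the eEF1B subunits recharge eEF1A with GTP, and eEF2 moves the ribosome along the mRNA. Proximal tubule cells carry a heavy load of transport proteins, and translation under stress is controlled in part through phosphorylation of eIF2 and through mTORC1.

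HK-2 identity was checked against marker lists. Levels are given as CPM, counts relative to library sizes scaled by the trimmed mean of M values (TMM). The 11 proximal tubule markers used summed to 75.9, 79 and 75.7 CPM in CP+siNC and 86.1, 90.9 and 91 CPM in CP+siNAT10. Only 4 of the 11 reached a mean of 1 CPM, led by PAX8 at 39.3 CPM, while SLC22A6 was at 0 counts and LRP2, CUBN, AQP1, ANPEP, HNF4A and SLC34A1 averaged below 1 CPM. Of those 11 markers, PAX8 and SLC5A2 were called higher, and GGT1 was called lower. The epithelial markers summed to 2000, 2020 and 1960 CPM in CP+siNC and 1920, 1900 and 1930 CPM in CP+siNAT10, with KRT8 most abundant at 1450 CPM and CDH1 below 1 CPM. KRT18 fell by 0.36 (adjusted p = 3.79e-10) and EPCAM rose by 0.31 (adjusted p = 9.02e-04). All 3 endothelial and both podocyte markers lay below 1 CPM. The fibroblast markers summed to between 21.4 and 29.3 CPM, mostly COL1A1, which rose by 0.38 (adjusted p = 6.22e-04), and LUM. Among the leukocyte markers PTPRC and CD3E averaged below 1 CPM and CD68, a lysosomal protein gene also read in other cells, averaged 240 CPM. CD68 rose by 0.40 (adjusted p = 7.97e-10) and PTPRC by 0.96 (adjusted p = 0.0411). The leukocyte sum was 208, 198 and 216 CPM in CP+siNC and 288, 265 and 268 CPM in CP+siNAT10, and its part in the results below was not tested. In bulk RNA a lower level can come from fewer cells of a kind or from less RNA per cell, and these cannot be told apart.

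NAT10 was examined first because it is the silenced gene (chr11:34105617-34147670, GRCh38). It was at 75.8, 71.4 and 73.2 CPM in CP+siNC and at 41.3, 40.5 and 42.4 CPM in CP+siNAT10. Each silenced library was thus under every control library, which is what the labels say. NAT10 fell by 0.82 on the log2 scale (SE 0.043, adjusted p = 2.79e-15 in edgeR's quasi-likelihood test), to 0.565 of control.

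Across the 64 members the changes were many, small and in both directions. At an adjusted p under 0.05, 34 of 64 members were called (53.1%), beside 44.1% of the 19874 genes tested. Of these 14 were higher in CP+siNAT10 (21.9% of members, beside 21.8% of all genes) and 20 were lower (31.2%, beside 22.3%). The call rate of any gene rose with its level, and the members were abundant. Among genes at a mean of 100 CPM or more, 20 of 33 members were called (60.6%) beside 69.8% of all such genes, and between 10 and 100 CPM 12 of 20 members were called (60%) beside 59.7%. Between 1 and 10 CPM 1 of 9 members was called (11.1%) beside 31.4%. Against genes of like level the share of members called was thus similar in the middle of these ranges and lower in the ranges on either side. At 100 CPM or more 13 of 33 members were lower and 7 higher, beside 794 and 610 of the 2012 genes. Between 10 and 100 CPM 7 of 20 members were lower and 5 higher, beside 2335 and 2479 of the 8064 genes. The groups did not overlap in 35 members (54.7%), beside 51.4% of all genes. The median log2 fold change of the members was 0.00043, beside 0.007 for all genes, and the median size of the change was 0.152, beside 0.209. With library sizes left unscaled the split of called members moved to 20 higher and 17 lower, as that of all genes moved to 5050 higher and 3786 lower.

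No member passed both an adjusted p under 0.05 and a change over 1 in size on the log2 scale in edgeR, whereas 464 of all genes did (2.33%). The count was also 0 in DESeq2 and 0 when edgeR tested against a fold change of 2, and at an unadjusted p under 0.05, where 37 members lay, it was again 0. The extremes among called members were EEF1A1 at -0.67 and EIF4E3 at 0.67. EEF1A1, EIF4G2 and EIF1AD fell by more than 0.5, and EIF4E3 was the only called member above 0.5.

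**Figure D1:**
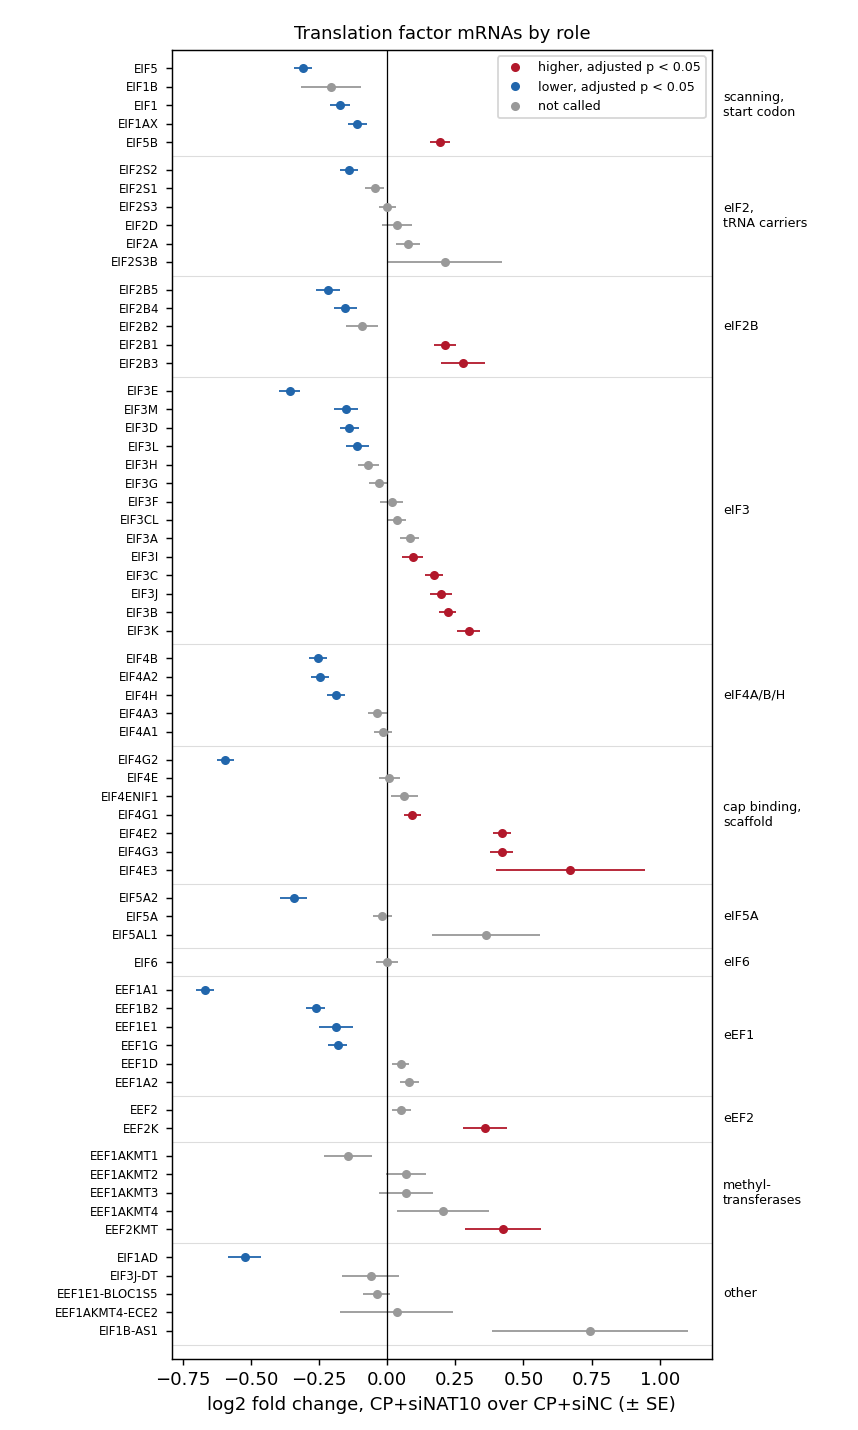
Log2 fold change (CP+siNAT10 over CP+siNC, points, with SE as bars) of the 64 members, grouped by role and sorted within each role. Red and blue points are the 14 higher and 20 lower members at an adjusted p under 0.05, and most roles hold points on both sides of 0.

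Among the factors of scanning and start codon selection, 3 of 5 fell and 1 rose. The 80% called compares with 69.8% of genes at 100 CPM or more, where the median level of this group lay. EIF5 encodes the protein that triggers GTP hydrolysis by eIF2 at the start codon, and it had the smallest p of this group. EIF5 was at 469, 446 and 459 CPM in CP+siNC and at 369, 358 and 382 CPM in CP+siNAT10. The groups were well separated, and EIF5 fell by 0.31 on the log2 scale (SE 0.034, adjusted p = 1.46e-08). EIF5B, the GTPase that joins the large subunit, went the other way. Its CP+siNC values were 621, 568 and 607 CPM, and its CP+siNAT10 values were 665, 682 and 708 CPM. Every CP+siNAT10 library was above every CP+siNC library, although the gap between the nearest libraries was smaller than the range within CP+siNC, and the log2 fold change was 0.19 (SE 0.036, adjusted p = 5.74e-05). EIF5B also had the highest level per length of the group, at 76.2 CPM per kilobase in CP+siNC. EIF1, which guards start codon fidelity, was at 113, 114 and 113 CPM against 96.2, 101 and 104 CPM and fell by 0.17 (adjusted p = 3.22e-04). EIF1AX fell by 0.11 (adjusted p = 0.0114), a call lost without CP+siNAT10 replicate 2 (adjusted p = 0.0562) or CP+siNC replicate 1 (adjusted p = 0.0661) and with library sizes unscaled (adjusted p = 0.0865), all in edgeR. EIF1B, a scarce close copy of EIF1, was at 8.39, 9.58 and 9.76 CPM against 7.36, 6.77 and 9.74 CPM. The groups overlapped and EIF1B was not called (adjusted p = 0.139), but it was called without CP+siNAT10 replicate 3 (log2 fold change -0.39, adjusted p = 0.00428). Leaving out other libraries gave values down to -0.099 in size, none of them called.

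For eIF2, the carrier of initiator tRNA, only the beta subunit gene was called. EIF2S2 was at 813, 825 and 865 CPM in CP+siNC and at 764, 770 and 738 CPM in CP+siNAT10. The CP+siNAT10 libraries were all lower, and EIF2S2 fell by 0.14 (SE 0.034, adjusted p = 0.00123). EIF2S1, whose product is phosphorylated in the integrated stress response, had a log2 fold change of -0.046 (SE 0.034), and EIF2S3 one of 0.0011 (SE 0.032), and neither was called. EIF2S3B, a scarce near-copy of EIF2S3, was not called either (log2 fold change 0.21, SE 0.21). Differences between the subunits were not tested. EIF2S2 also had the highest level per length of its group, 326 CPM per kilobase, against 53.4 for EIF2S3 and 35.5 for EIF2S1 in CP+siNC. The alternative carriers EIF2A and EIF2D had log2 fold changes of 0.077 and 0.035 and were not called, although EIF2A was without CP+siNC replicate 1 (adjusted p = 0.0498).

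The guanine nucleotide exchange factor eIF2B, which returns eIF2 to its active GTP form, was split. Of its 5 subunit genes 2 rose, 2 fell and 1 did not pass the test. The 80% called compares with 59.7% of genes between 10 and 100 CPM, where the median level of these subunit genes lay. EIF2B1, the regulatory alpha subunit, was at 71.5, 74.9 and 80.2 CPM in CP+siNC and at 89.2, 88 and 85.5 CPM in CP+siNAT10. All CP+siNAT10 libraries were higher, with a log2 fold change of 0.21 (SE 0.041, adjusted p = 1.03e-04). EIF2B5, the catalytic epsilon subunit, was at 66.4, 59.9 and 64.4 CPM against 54.4, 56.3 and 53.1 CPM. The groups again did not overlap, and EIF2B5 fell by 0.22 (SE 0.044, adjusted p = 1.77e-04). EIF2B3, the gamma partner of epsilon, rose by 0.28 (adjusted p = 0.00651), a call lost in DESeq2 (adjusted p = 0.0557), and EIF2B4 fell by 0.15 (adjusted p = 0.004). The sum over the 5 genes was 230, 222 and 233 CPM in CP+siNC and 230, 228 and 222 CPM in CP+siNAT10, so the totals overlapped while the subunits differed.

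eIF3 is the largest initiation factor and a platform for the small subunit and the mRNA. Of its 14 gene rows 5 rose, 4 fell and 5 did not pass the test, and the median log2 fold change was 0.028. The 64.3% called compares with 69.8% of genes at 100 CPM or more, where the median level of these rows lay. EIF3E had the smallest p, at 156, 149 and 164 CPM in CP+siNC and 117, 125 and 123 CPM in CP+siNAT10. The highest CP+siNAT10 library stayed below the lowest CP+siNC library, and EIF3E fell by 0.36 (SE 0.038, adjusted p = 7.89e-09). EIF3K, a peripheral subunit, was at 48.2, 45.8 and 46.1 CPM against 57, 56.3 and 58.8 CPM. These groups were separated in the opposite sense, with a log2 fold change of 0.30 (SE 0.043, adjusted p = 1.42e-06). EIF3B, a core scaffold subunit, rose by 0.22 (adjusted p = 1.87e-06), and EIF3J, a loosely bound subunit, rose by 0.20 (adjusted p = 2.28e-04). EIF3D, which can itself bind the cap of some mRNAs, fell by 0.14 (adjusted p = 0.00138), and EIF3M fell by 0.15 (adjusted p = 0.00655). EIF3I at 0.094 and EIF3L at -0.11 passed narrowly, with adjusted p of 0.0425 and 0.0325 in edgeR. Leaving out single libraries raised these to at most 0.22 for EIF3I (without CP+siNC replicate 3) and 0.142 for EIF3L (without CP+siNAT10 replicate 2). EIF3I was also lost without CP+siNAT10 replicate 1 (0.108), CP+siNAT10 replicate 3 (0.126) and CP+siNC replicate 1 (0.119), and EIF3L without CP+siNAT10 replicate 3 (0.0509), CP+siNC replicate 1 (0.0932) and CP+siNC replicate 2 (0.11). With all libraries, EIF3I was lost with offsets for gene length (0.605), in DESeq2 (0.12), with a replicate block (0.0583) and with upper quartile factors (0.0553). EIF3L was lost in DESeq2 (0.0998), with offsets for gene length (0.0661), with library sizes unscaled (0.167) and with no filter on low counts (0.114).

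EIF3A, the largest eIF3 subunit, had the highest level per length of the complex, 266 ± 11.2 CPM per kilobase (SD, n = 3) in CP+siNC. EIF3A was at 1980, 1859 and 1830 CPM against 1983, 2059 and 1964 CPM. CP+siNC replicate 1 lay within the range of the CP+siNAT10 libraries, and EIF3A was not called (log2 fold change 0.083, adjusted p = 0.0604), though it was without that library (adjusted p = 0.00627). With all libraries, EIF3A was also called in edgeR with no filter on low counts (adjusted p = 0.0101) and with library sizes unscaled (0.00295). EIF3C and EIF3CL are near-identical copies whose reads may be split between both rows, so their separate values are uncertain. EIF3C rose by 0.17 (adjusted p = 1.15e-04) and EIF3CL had a log2 fold change of 0.037 (adjusted p = 0.378).

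The helicase group was lower or level. EIF4B, a cofactor that raises the activity of eIF4A, was at 935, 925 and 898 CPM in CP+siNC and at 760, 772 and 783 CPM in CP+siNAT10. The groups were far apart relative to their spread, and EIF4B fell by 0.25 (SE 0.033, adjusted p = 2.39e-07). EIF4H, a cofactor related to EIF4B, fell by 0.19 (adjusted p = 2.15e-05). EIF4A2 was at 271, 257 and 266 CPM against 219, 219 and 231 CPM and fell by 0.25 (SE 0.034, adjusted p = 7.42e-07). EIF4A1, the main helicase, was at 299, 296 and 286 CPM against 291, 285 and 295 CPM. Its groups overlapped (log2 fold change -0.016, adjusted p = 0.739). A readthrough row, SENP3-EIF4A1, covers EIF4A1 and held 310 ± 5.54 CPM (SD, n = 3) in CP+siNC, so the EIF4A1 level is uncertain. The related EIF4A3, a part of the exon junction complex, had a log2 fold change of -0.035 and was not called.

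Cap binding and scaffold genes spread widely, from -0.59 to 0.67. EIF4G2 (chr11:10797050-10808940) encodes a shortened scaffold that lacks the eIF4E binding region and serves initiation that does not use eIF4E. It was at 606, 591 and 587 CPM in CP+siNC and at 394, 388 and 402 CPM in CP+siNAT10. The libraries within each group were almost level and the groups were far apart. EIF4G2 fell by 0.59 (SE 0.032, adjusted p = 9.22e-15), to 0.663 of control. CTR9, which overlaps EIF4G2 on the opposite strand, had a log2 fold change of -0.031 and was not called.

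EIF4G3 (chr1:20806292-21176888), a full-length scaffold like EIF4G1, was at 53.1, 55.4 and 52.3 CPM in CP+siNC and at 69.3, 74.8 and 71.4 CPM in CP+siNAT10. All CP+siNAT10 libraries were higher, with a log2 fold change of 0.42 (SE 0.042, adjusted p = 2.78e-09). EIF4G1, the main scaffold, was at 745, 726 and 729 CPM against 778, 786 and 782 CPM. EIF4G1 was higher in every CP+siNAT10 library, but only by 0.093 (SE 0.032, adjusted p = 0.0186). That call was lost without CP+siNAT10 replicate 2 (adjusted p = 0.059), CP+siNC replicate 2 (0.0812) or CP+siNC replicate 3 (0.0693), and with offsets for gene length (0.398).

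EIF4E2 (chr2:232550659-232580956) encodes a cap-binding protein that does not recruit eIF4G and is known as a translational repressor. It was at 176, 171 and 174 CPM in CP+siNC and at 230, 240 and 228 CPM in CP+siNAT10. The groups were clearly separated, with a log2 fold change of 0.42 (SE 0.033, adjusted p = 2.66e-11). EIF4E, the canonical cap-binding gene, was at 109, 115 and 117 CPM against 119, 113 and 111 CPM. These groups overlapped, and EIF4E was not called (log2 fold change 0.0086, SE 0.038). EIF4E3, an atypical cap-binding gene, was scarce at 0.637, 0.701 and 0.779 CPM against 0.902, 1.37 and 1.1 CPM. Although every CP+siNAT10 library was higher, the call was narrow (log2 fold change 0.67, SE 0.27, adjusted p = 0.0473). It was lost in edgeR without CP+siNAT10 replicate 2 (0.202) or 3 (0.0877), without CP+siNC replicate 1 (0.133), 2 (0.105) or 3 (0.0647), with no filter on low counts (0.0694), with offsets for gene length (0.0812), with the replicate number as a block (0.0596), and in DESeq2 (0.194). The transporter EIF4ENIF1, which carries eIF4E into the nucleus, was not called (log2 fold change 0.063).

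**Figure D2:**
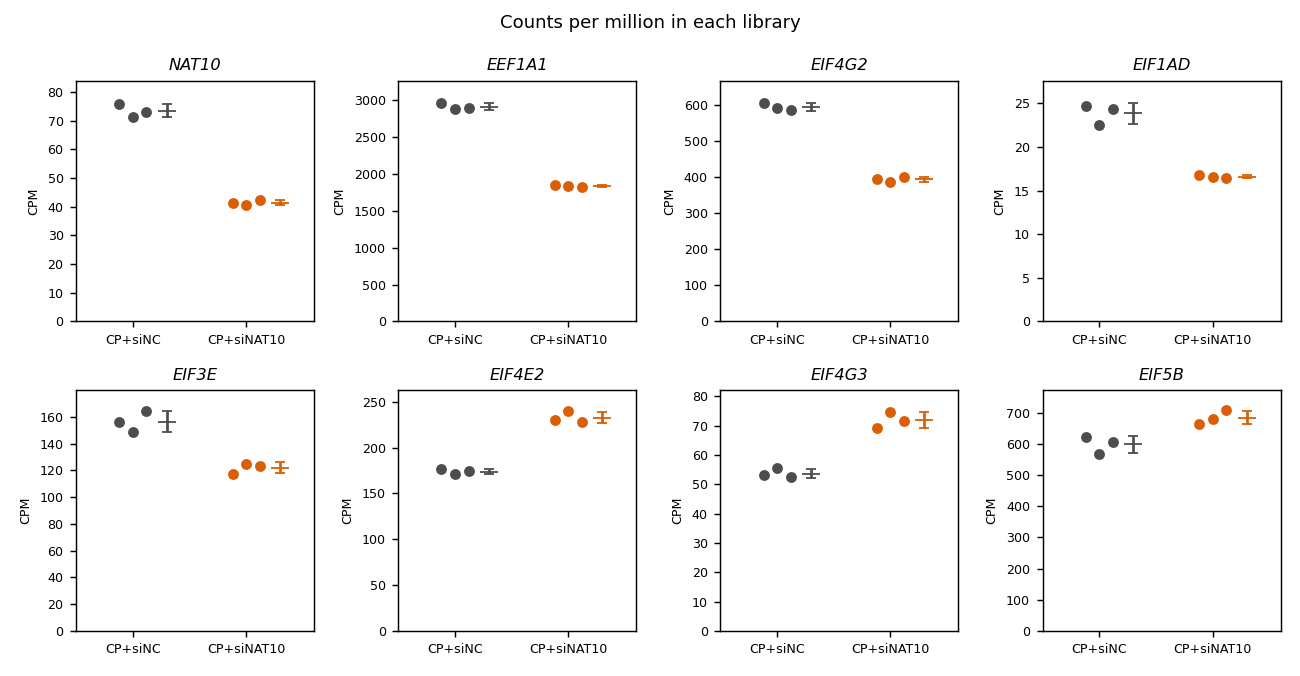
CPM of NAT10 and 7 members in each library (points) with the group mean and SD beside them, each axis starting at 0. NAT10, EEF1A1, EIF4G2, EIF1AD and EIF3E were lower in all 3 CP+siNAT10 libraries, and EIF4E2, EIF4G3 and EIF5B were higher in all 3.

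Shares within paralogue families were compared as the percent that each gene held of its family's counts per kilobase. In the scaffold family EIF4G2 held 44.4%, 44.3% and 44.1% in CP+siNC and 32.9%, 32.2% and 33.2% in CP+siNAT10. EIF4G1 held 52.9%, 52.7% and 53.1% against 63%, 63.3% and 62.6%. EIF4G3 held 2.77%, 2.96% and 2.81% against 4.13%, 4.44% and 4.21%. The differences were -11.5 percentage points for EIF4G2, 10.1 for EIF4G1 and 1.41 for EIF4G3. Shares of a family have a fixed sum, so the higher EIF4G1 share follows mostly from the fall of EIF4G2. With principal transcript lengths, chosen after the values were seen, the levels were 68% and 56.5% for EIF4G2 and 29.9% and 40% for EIF4G1 in CP+siNC and CP+siNAT10, so which of these leads depends on the length while the differences do not. The principal transcript of EIF4G2 had 1969 bases against 8485 counted, so which scaffold gene leads is uncertain. In the cap-binding family EIF4E2 rose from 39.8% ± 1.12 to 46.7% ± 1.14 (SD, n = 3), and EIF4E went from 60% ± 1.11 to 53% ± 1.19. With principal transcript lengths EIF4E2 held 91.6% and 93.5% and EIF4E 8.33% and 6.4%, differences of 1.92 and -1.93, so the leading gene and the size of the differences depend on the lengths used. The counted length was 4971 bases against 11520 in the principal transcript for EIF4E, and 11481 against 1604 for EIF4E2. EIF4A2 held 43.4% ± 0.872 of the EIF4A1 and EIF4A2 pair in CP+siNC and 39.5% ± 0.47 in CP+siNAT10, levels that rest on the uncertain EIF4A1 counts. EEF1A2 held 16.7% ± 0.593 of the EEF1A1 and EEF1A2 pair against 25.2% ± 0.502. Pseudogene rows of EEF1A1, which can take its reads, held 39.7% to 44.5% of its counts and were left out, so these levels are uncertain. EIF5A2 held 6.52% ± 0.176 of the EIF5A and EIF5A2 pair against 5.27% ± 0.31, a difference of -1.25 that was -0.737 with principal transcript lengths. EIF3CL held 79.8% ± 0.615 of the EIF3C copies against 78.2% ± 0.232, with the doubt about shared reads given above. With principal transcript lengths EIF3CL held 64% and 61.8%, a difference of -2.19 instead of -1.55. EIF1B held 13.5% ± 0.935 of the EIF1 pair against 13.1% ± 1.95, and its groups overlapped.

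Of the 11 shares compared in 7 families, 10 did not overlap between the groups, EIF1B being the exception. Shares of the same family are not separate results. For single genes, the groups did not overlap in 51.4% of all genes and in 1481 of the 2012 at 100 CPM or more. With principal transcript lengths the EIF4E3 groups overlapped as well (a difference of 0.0129, exact p = 0.30). The exact two-sided permutation test gave p = 0.10 for those 10, the smallest value that 3 against 3 can give, and p = 0.11 after Benjamini-Hochberg adjustment over the 11 shares. For EIF1B the exact permutation p was 0.80. No share could pass 0.05 in this design.

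eIF5A, which relieves ribosomes stalled during elongation and termination, was called only in its minor paralogue. EIF5A2 was at 37.1, 36.7 and 37.3 CPM in CP+siNC and at 27.6, 29.5 and 30.3 CPM in CP+siNAT10. The CP+siNC libraries were nearly identical and all above the CP+siNAT10 libraries, and EIF5A2 fell by 0.34 (SE 0.05, adjusted p = 1.82e-06). EIF5A itself, at 260, 261 and 251 CPM against 258, 244 and 260 CPM, had overlapping groups (log2 fold change -0.017, adjusted p = 0.728). EIF5AL1, a scarce near-copy of EIF5A whose reads can be shared with it, was not called either (log2 fold change 0.36, SE 0.20, adjusted p = 0.145). EIF6, which keeps the ribosomal subunits apart until the large one is mature, was at 62.9, 65.4 and 65.5 CPM against 65.8, 64.5 and 63.7 CPM. Its log2 fold change was -0.00024 (SE 0.04), and it was not called.

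The elongation factor eEF1 held the largest absolute loss of signal. EEF1A1 (chr6:73489308-73525587), which delivers aminoacyl-tRNA, was at 2958, 2879 and 2894 CPM in CP+siNC and at 1842, 1829 and 1827 CPM in CP+siNAT10. The libraries of each group lay close together with a wide gap between the groups. EEF1A1 fell by 0.67 (SE 0.033, adjusted p = 1.11e-15), to 0.63 of control. It held 0.296%, 0.288% and 0.289% of the scaled library in CP+siNC and 0.184%, 0.183% and 0.183% in CP+siNAT10. All 64 members together held 1.8%, 1.77% and 1.75% against 1.62%, 1.63% and 1.64%, and without EEF1A1 they held 1.51%, 1.48% and 1.46% against 1.44%, 1.45% and 1.45%. EEF1A1 thus accounted for most of the drop in the summed level, from 17760 ± 249 to 16310 ± 75.3 CPM (SD, n = 3).

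EEF1A1 has many near-identical processed pseudogenes, and reads can be assigned to either. The 49 EEF1A1P rows summed to 41.3%, 44.5% and 39.7% of the EEF1A1 counts in CP+siNC and 41.6%, 44.4% and 43.5% in CP+siNAT10. EEF1A1P5 and EEF1A1P6 held most of these and fell by 0.67 and 0.72 (adjusted p = 7.19e-16 and 7.07e-15), close to EEF1A1 itself. Of 18 pseudogene rows with enough counts 6 were called lower, 0 higher, 11 were not called and 1 was not tested. With all these rows added to EEF1A1 the gene fell by 0.65 (adjusted p = 1.18e-15), an alternative chosen after the values were seen. Of the 26 members with such pseudogene rows, EEF1A1 was the only one whose rows exceeded 10% of its own counts. MTO1, on the opposite strand at the same locus, had a log2 fold change of -0.059 and was not called.

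Of the subunits that recharge eEF1A with GTP, EEF1B2 and EEF1G fell, by less than EEF1A1. EEF1B2 was at 327, 318 and 307 CPM in CP+siNC and at 256, 266 and 271 CPM in CP+siNAT10. The groups did not overlap, and EEF1B2 fell by 0.26 (SE 0.034, adjusted p = 3.12e-07). EEF1G was at 809, 822 and 773 CPM against 691, 693 and 736 CPM and fell by 0.18 (SE 0.035, adjusted p = 8.86e-05). EEF1G had the highest level per counted length of the eEF1 genes, 304 CPM per kilobase in CP+siNC. EEF1D, the other exchange subunit, was at 393, 398 and 395 CPM against 412, 412 and 403 CPM. EEF1D was slightly higher in each CP+siNAT10 library but not called (log2 fold change 0.049, adjusted p = 0.217).

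EEF1A2, the paralogue of EEF1A1 typical of muscle and neurons, was at 277, 291 and 272 CPM against 289, 302 and 298 CPM. Its groups overlapped and it narrowly missed the call (log2 fold change 0.082, adjusted p = 0.0519). It was called without CP+siNAT10 replicate 1 (adjusted p = 0.034), without CP+siNC replicate 2 (0.0257) and in several other settings of edgeR. EEF1E1, a member of the multisynthetase complex rather than an exchange factor, fell by 0.19 (adjusted p = 0.0143), a call lost without CP+siNAT10 replicate 3 (0.145), in DESeq2 (0.0769), with offsets for gene length (0.0717) and with library sizes unscaled (0.0574). The readthrough row EEF1E1-BLOC1S5 covers EEF1E1 and held 35.4 CPM in CP+siNC against 23 CPM for EEF1E1, so reads can be shared between them.

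EEF2, the translocase, did not follow EEF1A1. It was at 1725, 1760 and 1640 CPM in CP+siNC and at 1754, 1766 and 1793 CPM in CP+siNAT10. CP+siNC replicate 2 lay within the CP+siNAT10 range, and EEF2 was not called (log2 fold change 0.052, SE 0.034, adjusted p = 0.234), with values from 0.020 to 0.069 when a library was left out. EEF2K, the kinase that inactivates eEF2, was scarce at 10.5, 11.8 and 9.92 CPM against 13.8, 13 and 14.5 CPM. All CP+siNAT10 libraries were higher, with a log2 fold change of 0.36 (SE 0.081, adjusted p = 5.67e-04).

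Several of these genes belong to the mRNAs with a terminal oligopyrimidine (TOP) start, a C at the cap followed by a run of pyrimidines that makes translation depend on mTORC1. Of 9 textbook TOP factor genes 5 fell, 0 rose and 4 did not pass the test, with a median log2 fold change of -0.18 beside 0.007 for all genes. The list of these 9 was chosen with earlier results of these data known. The 55.6% called compares with 44.1% of all genes and with 69.8% of genes at 100 CPM or more, whose median was -0.024. EEF1A1, EIF3E, EIF4B, EEF1B2 and EEF1G fell, whereas EEF2, EEF1D, EIF3F and EIF3H were not called, although EIF3H was lower with offsets for gene length (log2 fold change -0.094, adjusted p = 0.0437). With library sizes unscaled EEF2 (0.090, adjusted p = 0.0209) and EEF1D (0.087, adjusted p = 0.0214) were called higher, so these counts depend on the scaling. RefSeq promoter sequences (GRCh38.p14) were at hand for 52 members, with 70 start sites. A C at the annotated start followed by at least 4 bases that are all C or T was found at 13 of the 70 starts (18.6%), beside 4.07% of the 35116 promoters in the set. Counted by gene, 13 members carried such a start and 39 did not, beside 830 and 10952 of all tested genes with a promoter. Of the TOP genes named above, EEF1G had no such run at its start in the set. EIF3E, EEF1D and EIF3H had no start in the set. The run was read on the transcribed strand only, and a match describes the annotated start, not the start used in these cells. The starts below, with 15 bases before the start and 15 from it onward, are shown for 4 genes with such a run that fell and for 2 that were not called. EIF3K, which has such a run and rose, is not shown, so the display does not reflect the split given below. Capitals mark the pyrimidine run from the start base onward.
EEF1A1, chr6:73521018-73521047, minus strand, fell: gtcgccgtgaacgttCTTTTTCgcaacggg
EEF1B2, chr2:206159880-206159909, plus strand, fell: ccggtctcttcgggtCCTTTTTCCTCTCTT
EIF4B, chr12:53006441-53006470, plus strand, fell: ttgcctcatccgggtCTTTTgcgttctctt
EIF4A2, chr3:186783562-186783591, plus strand, fell: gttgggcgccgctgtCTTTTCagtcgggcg
EEF2, chr19:3985449-3985478, minus strand, not called: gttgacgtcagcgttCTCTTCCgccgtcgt
EIF3F, chr11:7987322-7987351, plus strand, not called: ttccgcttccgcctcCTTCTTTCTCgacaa

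The 13 members with such a start comprised 6 that fell, 1 that rose and 6 that were not called. EIF3K was the one that rose. Their median log2 fold change was 0.0011, beside -0.013 for all 830 tested genes with such a start, of which 53.4% were called. EIF2S3 and its near-copy EIF2S3B, both not called, carry the same run and are not separate cases. EEF1A1 and EEF2 both carry runs of 7 pyrimidines and differed in their log2 fold changes, -0.67 against 0.052. The 6-base motif CACGTG, a palindrome that reads alike on both strands, was found in 14 member promoters (20%), beside 7.26% of all promoters. These are not all separate sites, since EEF1AKMT4 and its readthrough share a start and EIF1B and EIF1B-AS1 start beside each other on opposite strands. Of the 14 genes with that motif 4 rose, 3 fell and 7 were not called, so 50% were called beside 54.6% of the 1464 tested genes that carry it.

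Among methyltransferases of the elongation factors 1 of 5 passed the test. That 20% compares with 31.4% of genes between 1 and 10 CPM, where the median level of these 5 lay. EEF2KMT, which methylates eEF2, was at 3.93, 3.27 and 3.58 CPM in CP+siNC and at 4.04, 4.67 and 5.6 CPM in CP+siNAT10. Its CP+siNAT10 values were all higher but spread widely (log2 fold change 0.42, SE 0.14, adjusted p = 0.0132). The call was lost without CP+siNAT10 replicate 3 (adjusted p = 0.138), without CP+siNC replicate 2 (0.0765) and in DESeq2 (0.0814). EEF1AKMT1, another of these, was at 9.51, 9.86 and 11.4 CPM against 9.31, 9.42 and 9.15 CPM and was not called (adjusted p = 0.200). EIF1AD (chr11:65996545-66002166), which shares a domain with eIF1A but is not a canonical factor, was at 24.7, 22.5 and 24.4 CPM against 16.8, 16.6 and 16.4 CPM. Its CP+siNAT10 libraries were almost identical and all lower, and EIF1AD fell by 0.52 (SE 0.061, adjusted p = 4.43e-08). The non-coding EIF1B-AS1, below 1 CPM in every library, was not called (log2 fold change 0.74, SE 0.36, adjusted p = 0.095).

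Levels between genes were compared per kilobase of the counted length. In CP+siNC the highest were EEF2 at 425 ± 15.4, EIF2S2 at 326 ± 10.7, EEF1G at 304 ± 9.49, EEF1A1 at 289 ± 4.16 and EIF3A at 266 ± 11.2 CPM per kilobase (SD, n = 3). In CP+siNAT10 the order was EEF2 at 440 ± 5.05, EIF2S2 at 296 ± 6.69, EIF3A at 282 ± 7.08, EEF1G at 268 ± 9.55 and EEF1A1 at 182 ± 0.831. Some neighbours were not resolved, since libraries of EIF3A overlapped those of EIF2S2 and EEF1G in CP+siNAT10, and those of EEF1G and EEF1A1 overlapped in CP+siNC. The ratio of the counted length to that of the principal GENCODE 29 transcript had a median of 1.69. For some genes the counted length was the shorter, as for EIF4E at 4971 bases against 11520. For EIF3E the counted length was 37761 bases against 1543, so its 4.14 CPM per kilobase understates it. With the principal transcript length EEF1A1 came first at 655 and EEF2 next at 540 CPM per kilobase in CP+siNC, and EIF4G2 at 302 passed EIF4G1 at 133. The EIF4G2 value rests on a principal transcript of 1969 bases against 8485 counted, so its place is uncertain. Within eIF3 the subunits, the loosely bound EIF3J aside, are held at equal number in the protein complex. Their mRNA levels per kilobase ranged from 3.92 for EIF3F to 266 for EIF3A, or from 7.86 to 284 with the principal transcript length. The EIF3F values rest on lengths of 15136 bases counted and 7540 in the principal transcript, so the low end is uncertain.

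**Figure D3:**
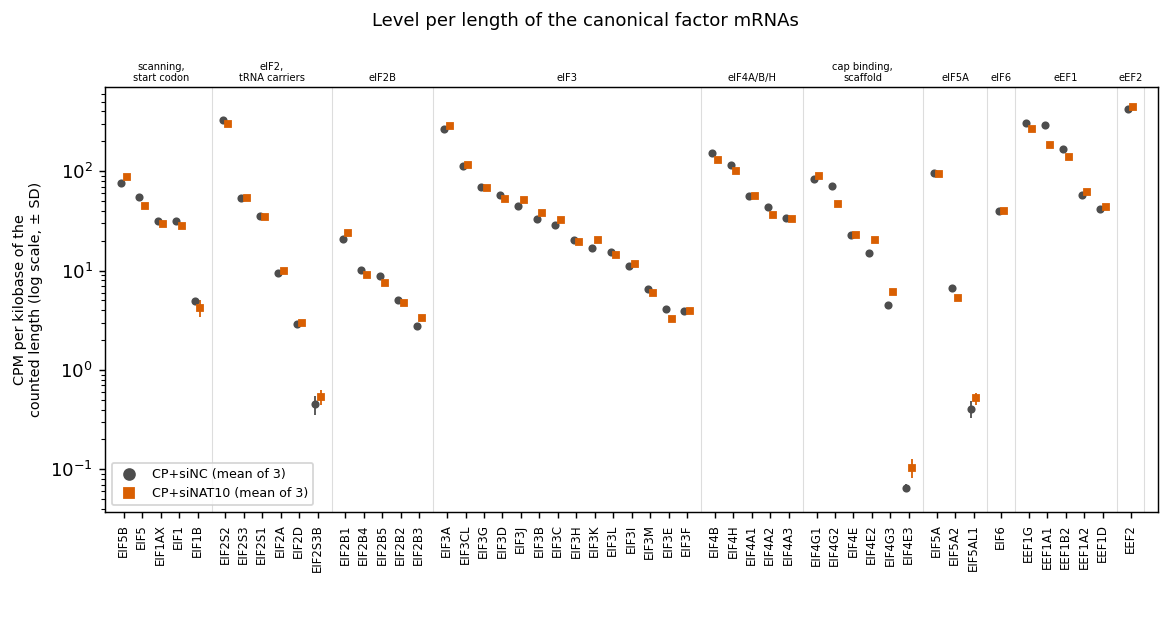
Level of the 51 canonical factor mRNAs as CPM per kilobase of counted length, on a log axis, as group means of 3 libraries with SD bars (circles CP+siNC, squares CP+siNAT10). EEF2 was the highest in both groups, and the shift between groups was small beside the spread between genes, with EEF1A1 and EIF4G2 showing visible drops.

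Genes that act on these factors were read from lists chosen with earlier results of these data known. The counts stand beside 44.1% of all tested genes called, 21.8% higher and 22.3% lower. Of 7 eIF2 kinase and phosphatase genes 1 rose and 3 fell, with a median log2 fold change of -0.0038. EIF2AK2, the kinase PKR that senses double-stranded RNA, was at 113, 113 and 111 CPM in CP+siNC and at 70.7, 77.6 and 75.2 CPM in CP+siNAT10. The groups were wide apart, and EIF2AK2 fell by 0.59 (SE 0.039, adjusted p = 4.54e-13). EIF2AK3, the kinase PERK of the endoplasmic reticulum, was at 17, 18.1 and 19.7 CPM against 25.1, 24.9 and 25.5 CPM. It was higher in each CP+siNAT10 library, with a log2 fold change of 0.46 (SE 0.061, adjusted p = 3.15e-07). PPP1R15A and PPP1R15B, which direct the phosphatase that reverses eIF2 phosphorylation, fell by 0.28 (adjusted p = 5.20e-08) and 0.24 (adjusted p = 4.60e-06).

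In the list of mTORC1 and cap complex kinases 7 of 11 tested genes rose and 1 fell, with a median log2 fold change of 0.26 beside 0.007 for all genes. The 72.7% called compares with 59.7% of genes between 10 and 100 CPM, where the list's median level lay. MTOR, the kinase itself, was at 48, 48.9 and 47.1 CPM in CP+siNC and at 70.9, 69.9 and 71.4 CPM in CP+siNAT10. All 3 CP+siNAT10 libraries lay well above the CP+siNC libraries, with a log2 fold change of 0.56 (SE 0.041, adjusted p = 4.51e-12). MKNK2, which phosphorylates eIF4E, had a log2 fold change of 0.56 (adjusted p = 6.18e-12), and the S6 kinase RPS6KB2 one of 0.54 (adjusted p = 1.39e-09). RHEB, the GTPase that activates mTORC1, was at 113, 113 and 113 CPM against 79.6, 83 and 78.3 CPM. RHEB was thus lower in every CP+siNAT10 library and fell by 0.49 (SE 0.037, adjusted p = 6.57e-12). TSC1 and TSC2, whose complex inhibits RHEB, both rose, with log2 fold changes of 0.22 and 0.27.

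Of 8 inhibitors of eIF4 factors 2 rose, 2 fell and 4 did not pass the test. EIF4EBP2 was at 68.5, 66.2 and 68.8 CPM against 60.5, 58.5 and 58.4 CPM and fell by 0.20 (adjusted p = 1.73e-04). EIF4EBP1, another eIF4E-binding protein gene, had a log2 fold change of 0.023 and was not called, nor was EIF4EBP3 at -0.25. PAIP2, which displaces poly(A)-binding protein, rose by 0.26 (adjusted p = 1.16e-06), CYFIP1 rose by 0.32 (adjusted p = 3.75e-05), and PDCD4, an inhibitor of eIF4A, fell by 0.13 (adjusted p = 0.00312).

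Among 9 helpers of initiation 3 rose and 3 fell. DENR, which acts in reinitiation, was at 355, 347 and 332 CPM in CP+siNC and at 252, 254 and 250 CPM in CP+siNAT10. The CP+siNAT10 libraries were tightly grouped below, and DENR fell by 0.45 (SE 0.033, adjusted p = 5.92e-12). The main poly(A)-binding protein gene PABPC1 fell by 0.27 (adjusted p = 1.40e-07) and PAIP1 by 0.36 (adjusted p = 7.23e-09), while PABPC4 rose by 0.24 (adjusted p = 1.82e-06). Of 5 termination and rescue genes only the release factor ETF1 was called, with a log2 fold change of 0.17 (adjusted p = 6.98e-04). GSPT1, GSPT2 and PELO had log2 fold changes of -0.047, -0.10 and -0.12 and were not called, although PELO was called without CP+siNAT10 replicate 3 (adjusted p = 0.0431) or CP+siNC replicate 1 (0.0447), and GSPT1 with offsets for gene length (log2 fold change -0.097, adjusted p = 0.02). Leaving out a library moved GSPT1 between -0.07 and -0.022 and PELO between -0.17 and -0.065.

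The enzymes that make hypusine on eIF5A and diphthamide on eEF2 were split, with 2 of 8 tested genes higher and 3 lower. DHPS, which starts hypusine synthesis, was at 45.7, 43.8 and 41.1 CPM against 37.1, 37.1 and 33.1 CPM and fell by 0.29 (adjusted p = 5.10e-05). DNAJC24 fell by 0.36 (adjusted p = 4.21e-04), whereas DPH2 and DPH5 rose by 0.31 (adjusted p = 1.74e-04) and 0.22 (adjusted p = 0.00126). For comparison, 4 of 9 mitochondrial translation factors were called, 2 in each direction. GFM1, the mitochondrial counterpart of eEF2, was at 55.6, 54 and 53.3 CPM in CP+siNC and at 38, 36.4 and 37.8 CPM in CP+siNAT10. The groups were clearly separated, and GFM1 fell by 0.54 (SE 0.044, adjusted p = 6.12e-11). MTIF2 and MTIF3, mitochondrial initiation factors, rose by 0.19 (adjusted p = 8.77e-04) and 0.29 (adjusted p = 3.48e-04). MRRF, the recycling factor, fell by 0.16 (adjusted p = 0.0103), a call lost without CP+siNC replicate 2 (0.0599) or CP+siNAT10 replicate 3 (0.0574), in DESeq2 (0.0535), and with library sizes unscaled (0.0574).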

How the data were processed

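RNA from 3 CP+siNC and 3 CP+siNAT10 libraries of HK-2 cells was sequenced from stranded mRNA libraries. The authors deposited raw counts per gene, whole numbers for 62754 genes with a length for each. The submitters' processing notes name Trimmomatic 0.36, STAR 2.5.3a, featureCounts of Subread 1.5.1, edgeR 3.12.1 and GRCh38. The library kit adds unique molecular identifiers to correct for duplicates. The annotation release, the handling of multiply mapped reads, the strand setting of the counting and whether these identifiers were merged before counting are not given in the sources used here.

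Groups and replicate numbers came from the sample titles. Counts were analysed with edgeR 4.0.16 in R 4.3.3, using filterByExpr (minimum count 10, minimum total 15), which kept 19874 genes, TMM factors, glmQLFit and glmQLFTest with no covariate, and Benjamini-Hochberg adjustment over all tested genes. A gene was called at an adjusted p under 0.05. CPM were counts over TMM-scaled library sizes. Libraries held 19321665 to 25192736 counts, and the common biological coefficient of variation was 3 percent, so changes of well under a doubling pass the test in abundant genes. Lengths for levels per kilobase were the deposited ones. Paralogue shares used an exact permutation test over libraries (SciPy 1.17.1). The fit was tested on simulated data. Named genes were NAT10, in each role the member with the smallest p and the highest level per length, called members over 0.5 in size, paralogue family members and up to 4 genes with the smallest p per list; further members of a complex or list were named after their values were seen. METTL13 stood in the methyltransferase list but is no member by name. Members and lists were chosen with earlier results of these data known. Alternatives were other size factors, no filter, a stricter filter (50 counts in 3 libraries), DESeq2 1.42.0, a replicate block, offsets for gene length, leaving out each library, other member rules, and, chosen after seeing the data, principal transcript lengths (GENCODE 29) and EEF1A1 with its pseudogene rows.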

Additional observations from a re-analysis of the deposited data

How the results depend on the processing

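The count of members called was 34 and ranged from 28 (DESeq2) to 37 (library sizes left unscaled) over the settings with all libraries, and from 30 to 34 when a library was left out. Of all genes DESeq2 called 33.5% and the unscaled fit 44.5%, beside 44.1% in the main fit. Of the 34 called members 26 were called in every one of the 14 refits that tested them, and no called member changed direction in any. Leaving out a library gave 11 to 14 members higher and 18 to 20 lower, 7820 to 8170 genes called in all, and 0 to 1 members past both limits, the 1 being EIF1B-AS1 without CP+siNC replicate 2 (log2 fold change 1.14, adjusted p = 0.0386). With EIF4EBP1, EIF4EBP2 and EIF4EBP3 added to the members 35 were called (14 higher, 21 lower), and of the 51 canonical factors alone 30 were (12 higher, 18 lower). Other size factors moved the median log2 fold change of all genes by at most 0.037. With library sizes unscaled EEF1A2, EEF1D, EEF2, EIF2A, EIF3A and EIF3CL were also called higher. Genes near 0 changed sign: EIF5A to 0.027 and EIF6 to 0.046 with offsets for gene length, EIF4A1 to 0.022, EIF5A to 0.021 and EIF6 to 0.037 with library sizes unscaled, and EIF6 to 0.011 with no filter. Without a library EIF4E ranged from -0.021 to 0.034, EIF5A from -0.038 to 0.013 and EIF6 from -0.021 to 0.012. In the same fits EIF4A1 ranged from -0.0383 to -0.000632 and EIF3CL from 0.0215 to 0.0557. The EIF1B share difference ranged from -1.42 to 0.503 percentage points. The causes were not tested. With the replicate number as a block 32 members and 8526 genes were called, EIF3I (adjusted p = 0.0583) and EIF4E3 being lost. Same-numbered libraries did not deviate together (correlations -0.0297, 0.0233 and -0.161), so the numbers were not taken as pairs.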
